A study of Mus musculus with 12 samples.

Results

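The 9 genes described here, Havcr1, Lcn2, Clu, Spp1, Sox9, Vcam1, Cd44, Vim and Sox4, are the classic transcript markers of renal tubular injury, and they were taken by name from the 23420 genes of the count table. RNA from 12 kidneys of male C57BL/6J mice, aged 8 to 15 weeks by the study's methods, was sequenced, with 4 kidneys in each of 3 groups. The control kidneys were taken at nephrectomy by the methods, whereas the labels give 20 min of pedicle clamping and removal at 24 h for all 12 kidneys, and whether the controls came from the same animals as the ischemic kidneys is not stated. The 8 ischemic kidneys underwent that ischemia in conscious or in anaesthetised mice, but their titles and their group field contradict each other. The 4 kidneys titled anaesthetised with a group field of conscious are therefore called ischemia set A, the 4 kidneys titled conscious with a group field of anaesthesia are called ischemia set B, and no direction is assigned to anaesthesia. By the study's text, the clamp of conscious mice was tightened under a short isoflurane sedation, and ketamine with xylazine was the anaesthetic.

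After ischemia, surviving tubular epithelial cells lose part of their differentiated transport programme, spread over the bare basement membrane and divide, and during this phase they express genes that the resting tubule keeps low. The proximal tubule bears most of this injury, since it depends on oxygen for its high rate of transport. Some of these genes encode surface receptors (Havcr1, Vcam1, Cd44), some encode secreted proteins that reach urine or plasma and serve as injury markers (Lcn2, Clu, Spp1), and others encode transcription factors (Sox9, Sox4) or the cytoskeletal protein vimentin (Vim).

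Total counts per kidney lay between 15367342 and 44793350, with medians of 32884589.5 in the controls, 27158369.5 in set A and 18181497.5 for set B. Levels are given as CPM, counts scaled to a library of 1000000 reads with the TMM factors of edgeR, and 3 counts, taken as the detection floor, corresponded to between 0.067 and 0.195 CPM. This floor and the counting intervals cover counting error only. After filtering on low counts 11664 genes were left, all 9 markers among them, and a gene was called when its p from the quasi-likelihood test of edgeR, adjusted by Benjamini and Hochberg's method, was below 0.05. Set B replicate 4 stood apart on the second principal component of all genes (149, against -41.4 to 25.6 in the other 11 kidneys), so results that rest on it are also given without it. The tissue was checked on 12 proximal tubule markers. Of these the phosphate transporter Slc34a1 stood at 4919 ± 279.9 CPM in the controls (SD, n = 4) and 420.5 ± 157 and 426 ± 207 in sets A and B. Control levels of the 12 differed widely, the lowest being Kap at 41.8 ± 7.86 CPM, named after its values were seen. In each ischemia set 11 of the 12 were called lower, Slc13a1 being the exception.

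Of the 9 markers, 7 were called higher in set A than in the controls and 7 were called higher in set B, where 10.5% and 10.9% of all genes tested were called higher. These were Havcr1, Lcn2, Clu, Spp1, Sox9, Vim and Sox4 in each comparison, and Vcam1 and Cd44 were not called in either. The median log2 fold change of the 9 markers was 4.37 and 4.62 in sets A and B, while the median over all genes tested was -0.02 in each. All 4 set A kidneys lay above all 4 controls for 8 of the 9 markers and all 4 set B kidneys for 7, compared with 12.6% and 11.6% of all genes tested. Without set B replicate 4, 8 markers were called higher in set B. Both ischemia sets are compared with the same 4 control kidneys, so the comparisons are not independent. Since each value is from bulk kidney tissue, more cells of a type and more RNA per cell cannot be told apart.

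**Figure D1:**
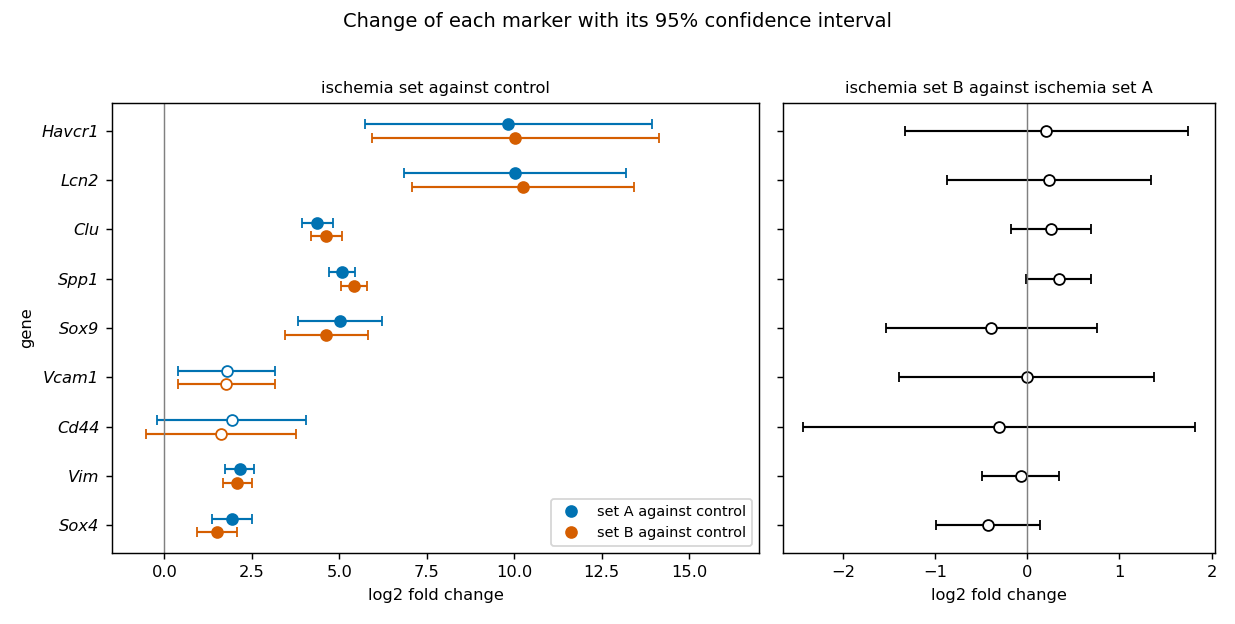
Log2 fold change (x axis) of each marker gene (y axis) for each ischemia set against the controls (left) and for ischemia set B against ischemia set A (right), from the edgeR fit of all 12 kidneys. Bars are 95% confidence intervals, filled points were called at an adjusted p below 0.05 and open points were not. Of the 9 markers, 7 are filled for each set against the controls and 0 in the comparison of the sets.

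Havcr1 (chr11:46735080-46779578 in mm10, plus strand) encodes kidney injury molecule 1 (KIM-1), a phosphatidylserine receptor that lets tubular cells take up dying neighbours. Control replicates 1, 3 and 4 held 0 Havcr1 reads and control replicate 2 held 1. Set A replicates 1 to 4 held 402, 93, 636 and 249 reads, which is 12.8, 3.98, 14.0 and 14.99 CPM. Set B replicates 1 to 4 held 622, 393, 12 and 99 reads, or 20.9, 24.9, 0.580 and 6.28 CPM. Every ischemic kidney exceeded every control, but the set B kidneys spread widely, the highest being 42.8 times the lowest. With the reads of each group pooled and divided by its summed TMM-scaled library sizes, set A was at 1458 times the controls, with a 95% counting interval of 261 to 57645 because the controls together held 1 read, and that of set B was 1698 times (304 to 67107). Without control replicate 2, which held that read, the controls were all at 0. The counting interval leaves out the spread between kidneys. The edgeR fit, which takes it in, gave 909 times in set A (95% confidence interval 52.8 to 15665) and 1047 times in set B (60.8 to 18044). Havcr1 was called in both sets, with adjusted p = 5.47e-06 for A and 4.58e-06 for B, and the two-sided exact permutation test of CPM gave p = 0.0286 in each, the smallest value that 4 against 4 kidneys allow.

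The list of other receptors and bridging proteins of phosphatidylserine uptake held 10 genes, of which 7 were tested. In set A 1 was called higher and 2 lower, at a median log2 fold change of 0.06, and in set B 1 was higher and 1 lower, with a median of -0.72, against 22.3% and 22.8% of all genes called in either direction. These shares, and the 10.5% and 10.9% of all genes called higher, also stand beside the counts of the lists below. Axl, a receptor tyrosine kinase of this pathway, rose from 34.3 ± 7.91 CPM in the controls to 110.4 ± 27.7 and 107 ± 15.4 in sets A and B (SD, n = 4). Its bridging ligand Gas6 fell from 171 ± 39.9 CPM to 69.9 ± 22.9 and 62.6 ± 17.8. The related receptor Mertk was at 20.3 ± 4.86 CPM in the controls and 8.87 ± 2.76 in set A (adjusted p = 0.0205), and at 11.7 ± 3.87 in set B (adjusted p = 0.127). Of the closest relatives of Havcr1, Havcr2 had 0 counts in all 12 kidneys, and Timd2 stood at 0.668 ± 0.858, 0.897 ± 1.08 and 0.700 ± 0.889 CPM in the controls, set A and set B and was not called (adjusted p = 0.947 and 0.993).

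Vcam1 (chr3:116109949-116129688, minus strand) encodes an adhesion molecule of the immunoglobulin family that binds the leukocyte integrin of Itga4 and Itgb1, and it is also used as a marker of tubular cells that fail to recover. In the controls the levels were 3.16, 0.598, 3.74 and 1.28 CPM. In set A the levels were 6.89, 6.72, 8.70 and 7.65 CPM. In set B the levels were 15.6, 3.92, 7.01 and 3.24 CPM. All 4 set A kidneys lay above the controls and close together, whereas set B replicate 4 fell below the highest control. The fold over control was 3.42 in set A (95% confidence interval 1.30 to 8.97, log2 1.77 ± 0.66 SE, adjusted p = 0.0719) and 3.40 in set B (1.30 to 8.93, log2 1.77 ± 0.67, adjusted p = 0.0720), so that neither passed the threshold. The exact permutation test gave p = 0.0286 for set A and 0.0571 for set B. Without set B replicate 4 the log2 fold change of set B was 2.01 and was called (adjusted p = 0.0440), and without set B replicate 1 it was 1.09 (adjusted p = 0.363). DESeq2 called Vcam1 in both sets (adjusted p = 0.0282 in each) and limma-trend in set A (adjusted p = 0.0384). An antisense transcript, Gm43109, lies over Vcam1 exons, and since the strand setting of the counting is not stated, their reads may not have been told apart.

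Of 16 genes of leukocyte adhesion and its control by NF-kB, 10 were tested, 3 were called higher in each set and 0 lower, with median log2 fold changes of 1.15 and 1.62. Nfkb2, a subunit of NF-kB, rose from 10.95 ± 5.08 CPM to 48.7 ± 9.51 and 41.4 ± 11.5 in sets A and B. Itgb1, the integrin beta 1 chain shared by many matrix and cell receptors, rose from 197 ± 17.8 CPM to 350.4 ± 39.1 and 339 ± 59.3. The alpha chain of the VCAM-1 receptor, Itga4, had 0 counts in the controls and 0.939 ± 1.09 and 0.328 ± 0.657 CPM in sets A and B, and it did not pass the low-count filter. Icam1, the other main adhesion molecule of this kind, was at 0.0868 ± 0.174, 0.814 ± 0.753 and 1.32 ± 1.98 CPM and was not called (adjusted p = 0.426 and 0.316).

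Cd44 (chr2:102811141-102901665, minus strand) encodes the hyaluronan receptor, which also binds osteopontin. The 4 controls read 0, 0.831, 3.70 and 0.758 CPM, and the floor in the kidney with 0 counts was 0.147 CPM. The 4 kidneys of set A read 9.14, 3.25, 3.77 and 3.91 CPM. The 4 kidneys of set B read 4.41, 3.41, 5.08 and 3.30 CPM. Set A replicate 1 lay apart from the other 7 ischemic kidneys, and control replicate 3 lay above 1 set A kidney and 2 set B kidneys. The fold was 3.78 in set A (0.862 to 16.6, adjusted p = 0.232) and 3.06 in set B (0.695 to 13.4, adjusted p = 0.327), with exact permutation p values of 0.0571 and 0.0857, and it was not called in either. Without control replicate 3 the log2 fold change was 3.20 in place of 1.92 for set A and 2.89 in place of 1.61 for set B, still not called (adjusted p = 0.0657 and 0.0928), while limma-trend called Cd44 in set A (adjusted p = 0.0465).

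The 250 bases before the Cd44 start site are shown because Cd44 is, with Vcam1, the marker whose rise did not pass the test, and they can be set beside those of Spp1 and Sox4 given with those genes. The sequences are from a table of RefSeq promoters on GRCm38.p6, in which 6 of the 9 markers were matched, and they run 5′ to 3′ on the strand of the gene. Capitals mark matches on either strand to any of 8 motifs, for which the share of 32851 promoters of this length that held a match is given. The NF-kB motif was found in 17.6%, the AP-1 motif TGANTCA in 6.75%, the TATA box TATAAA in 12.4% and the STAT motif TTCNNNGAA in 7.02%. The TEAD motif GGAATG was found in 12.6%, the CCAAT box in 33.8%, the E-box CACGTG in 6.02% and the HIF motif ACGTG, which lies within the E-box, in 16.6%. The Cd44 window, chr2:102901666-102901915 on the minus strand, held ACGTG at -29 to -25, counting -1 as the last base before the start.
Cd44: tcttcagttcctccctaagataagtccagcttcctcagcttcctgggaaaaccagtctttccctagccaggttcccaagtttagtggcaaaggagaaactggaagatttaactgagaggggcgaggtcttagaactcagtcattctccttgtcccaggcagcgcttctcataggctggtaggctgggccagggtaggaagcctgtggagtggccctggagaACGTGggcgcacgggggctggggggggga

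Of 14 genes that make, cleave or bind hyaluronan or link CD44 to the cytoskeleton, 11 were tested. In set A 3 were called higher and 1 lower, at a median log2 fold change of -0.39, and in set B 3 higher and 3 lower, with a median of 0.57. Msn, which encodes moesin, a linker of CD44 to actin, rose from 501 ± 38.6 CPM to 2257 ± 62.3 and 2103 ± 315 in sets A and B. Mmp14, a membrane protease that cleaves CD44, rose from 18.4 ± 5.35 CPM to 39.7 ± 13.0 and 40.6 ± 9.99. The hyaluronan synthases Has1 and Has2 had 0 counts in control and set B kidneys and reached 1.62 and 1.81 CPM in set A at most, and neither was tested. Hmmr, the other hyaluronan receptor of the list, was at 0.00650, 0.599 and 1.202 CPM on average and was not called (adjusted p = 0.170 and 0.113).

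Lcn2 (chr2:32384633-32388252, minus strand) encodes neutrophil gelatinase-associated lipocalin, a secreted binder of iron-laden siderophores. Control replicates 1 to 3 held 0 reads and control replicate 4 held 1. Among set A kidneys the values were 17.7, 4.45, 9.38 and 20.5 CPM, from 558, 104, 426 and 341 reads. Among set B kidneys the values were 9.40, 27.2, 8.94 and 15.7 CPM, from 279, 430, 185 and 248 reads. Each of the 8 ischemic kidneys held at least 104 Lcn2 reads, and the groups did not overlap. By the same ratio of pooled reads, Lcn2 was at 1510.2 times the controls in set A (95% counting interval 271 to 59690.2) and 1722 times in set B (308 to 68059.6), and without control replicate 4 the controls were all at 0. The edgeR fit, which takes in the spread between kidneys, gave 1032 times in set A (95% confidence interval 115 to 9279) and 1214 times in set B (135 to 10917). Lcn2 passed the test with adjusted p = 8.14e-08 for A and 6.75e-08 for B, with an exact permutation p of 0.0286 in each. Neutrophils also make this protein, and of the 9 neutrophil markers measured, 0 passed the filter and 6 were at or under the floor in every kidney, with a summed level of 0 CPM in the controls, 0 to 0.969 across set A and 0 to 2.67 across set B, and their part in the Lcn2 level was not tested. Values of 0 in this table are not read as absence, since Hba-a1 and Hba-a2, the alpha globin genes, had 0 counts in every kidney beside 83.8 ± 26.6 CPM of the beta globin gene Beta-s in the controls, and Cst3, which most cells express, was at 0.0130 ± 0.0150 CPM in the controls.

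Of 10 genes for receptors, ligands and regulators of lipocalin 2, 9 were tested, of which 3 were called higher and 3 lower in set A (median log2 fold change 0.33) and 1 higher and 3 lower in set B (0.18). Lrp2, which encodes megalin, the proximal tubule receptor that takes filtered lipocalin 2 back up, fell from 765 ± 51.2 CPM to 115 ± 42.1 and 108 ± 60.9. Slc22a17, the other receptor for lipocalin 2, fell from 72.9 ± 10.7 CPM to 29.7 ± 8.75 and 32.8 ± 7.92. Nfkbiz, an NF-kB cofactor known to act on the Lcn2 gene, rose from 7.14 ± 5.61 CPM to 46.1 ± 5.15 and 46.2 ± 14.3.

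Clu (chr14:65968483-65981547, plus strand) encodes clusterin, a secreted chaperone that binds misfolded proteins and cell debris. Among controls the values were 7.34, 8.03, 3.90 and 6.06 CPM. Set A kidneys 1 to 4 had 159, 115, 114 and 136 CPM. Set B kidneys 1 to 4 had 112, 156, 165 and 192 CPM. Each ischemic kidney held at least 2255 Clu reads and no control more than 309, and the groups lay far apart. The spread was widest in the controls, where the highest kidney was 2.06 times the lowest. Clu rose 20.7-fold in set A (15.2 to 28.1, log2 4.37 ± 0.21, adjusted p = 1.32e-10) and 24.7-fold in set B (18.1 to 33.5, log2 4.62 ± 0.21, adjusted p = 8.96e-11). Of 8 genes for clusterin receptors and related chaperones, 7 were tested, and 1 was called higher and 3 lower in set A (median log2 fold change -0.63), 1 higher and 2 lower in set B (-0.26). The gene called higher was Lrp8, a lipoprotein receptor that binds clusterin, which rose from 3.59 ± 1.56 CPM to 47.0 ± 16.3 and 28.1 ± 11.1, while the clusterin receptor megalin fell as given for Lrp2.

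Spp1 (chr5:104435118-104441050, plus strand) encodes osteopontin, a secreted phosphoprotein that binds integrins and CD44. Control kidneys 1 to 4 had 19.2, 15.5, 13.8 and 18.2 CPM. In set A the levels were 510.1, 464, 553 and 725 CPM. In set B the levels were 519.5, 704, 683 and 942 CPM. The highest control was far below the lowest ischemic kidney, and within a group the highest kidney was at most 1.81 times the lowest. Spp1 rose 33.7-fold in set A (26.3 to 43.3, log2 5.08 ± 0.17, adjusted p = 3.11e-12) and 42.7-fold in set B (33.2 to 54.8, log2 5.41 ± 0.17, adjusted p = 2.52e-12). By p it ranked 2 of the 11664 genes tested in set A and 1 in set B. An uncharacterised transcript on the same strand, Gm42793, lies over Spp1 exons.

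The 250 bases before the first RefSeq start site of Spp1, the marker with the smallest p, are chr5:104434861-104435110 on the plus strand. They held TATAAA at -211 to -206 and ATTGG, the reverse of CCAAT, at -46 to -42.
Spp1: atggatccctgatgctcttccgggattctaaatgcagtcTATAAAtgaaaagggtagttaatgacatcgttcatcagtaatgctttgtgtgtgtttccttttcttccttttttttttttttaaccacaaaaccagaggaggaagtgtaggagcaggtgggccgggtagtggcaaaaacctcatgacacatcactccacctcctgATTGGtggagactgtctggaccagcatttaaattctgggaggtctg

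Of 10 genes for integrin chains that take part in osteopontin receptors, 9 were tested, of which 3 were called higher and 1 lower in set A (median log2 fold change 0.64) and 3 higher and 0 lower in set B (-0.04). Itga5, the alpha 5 chain, rose from 22.7 ± 5.26 CPM to 165 ± 68.4 and 156 ± 48.8. Itga8, the alpha 8 chain of mesangial and smooth muscle cells, fell from 15.2 ± 4.61 CPM to 3.57 ± 2.53 in set A (adjusted p = 0.0126) and was at 7.67 ± 4.96 in set B (adjusted p = 0.252).

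Sox9 (chr11:112782224-112787760, plus strand) encodes a transcription factor of the developing nephron that is switched on again in tubular cells that repair. In the controls the levels were 2.45, 9.30, 0 and 3.03 CPM, from 51, 358, 0 and 116 reads. The 4 kidneys of set A read 149, 103, 136 and 102 CPM. The 4 kidneys of set B read 79.7, 73.8, 115 and 106 CPM. The ischemic kidneys were alike, with at least 1167 reads each, and the controls were not, from 358 reads in control replicate 2 to 0 in control replicate 3, where the floor was 0.112 CPM. Sox9 rose 32.4-fold in set A (14.2 to 73.9, log2 5.02 ± 0.57, adjusted p = 9.03e-06) and 24.7-fold in set B (10.8 to 56.5, log2 4.63 ± 0.57, adjusted p = 1.98e-05). Without control replicate 2 the log2 fold change was 6.04 and 5.64 in sets A and B, and it was called whichever kidney was left out.

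Sox4 (chr13:28948919-28953713, minus strand) encodes a related transcription factor of progenitor and migrating cells. The 4 controls read 25.5, 32.3, 19.8 and 17.2 CPM. Among set A kidneys the values were 112, 72.5, 86.6 and 88.0 CPM. Among set B kidneys the values were 55.8, 34.5, 102 and 75.4 CPM. The groups did not overlap, although set B replicate 2 was just above the highest control. Sox4 rose 3.79-fold in set A (2.55 to 5.63, log2 1.92 ± 0.27, adjusted p = 3.46e-05) and 2.82-fold in set B (1.90 to 4.19, log2 1.496 ± 0.27, adjusted p = 4.46e-04), the smallest rise among the 7 markers called. A long non-coding RNA on the opposite strand, Gm26735, lies over the single exon of Sox4.

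The Sox4 window is shown beside that of Spp1 because the sizes of their rises differ most among the called markers with a printed window. It is chr13:28953700-28953949 on the minus strand, of which 14 bases lie in the annotated exon. It held GGAATG at -168 to -163, which overlaps the reverse CCAAT box at -171 to -167, and further CCAAT boxes at -104 to -100, -47 to -43 and -8 to -4. None of the letters searched for NF-kB, AP-1, STAT or the E-box was in any of the 3 windows printed. Among the windows not printed, that of Vim, whose 250 bases all lie in annotated Vim exons, held an NF-kB match at -141 to -132, TATAAA at -32 to -27 and CCAAT boxes at -196 to -192 and -94 to -90. The windows of the second and the third Havcr1 start sites held ACGTG, at -239 to -235 and at -154 to -150, and no match was in the Lcn2 window.
Sox4: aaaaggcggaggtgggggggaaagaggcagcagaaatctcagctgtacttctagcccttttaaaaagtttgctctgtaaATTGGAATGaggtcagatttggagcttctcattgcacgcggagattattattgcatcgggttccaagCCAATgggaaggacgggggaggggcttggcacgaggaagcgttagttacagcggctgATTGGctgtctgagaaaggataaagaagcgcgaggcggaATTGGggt

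Of 15 other genes of the SOX family, 8 were tested and 0 were called higher in either set, with median log2 fold changes of -0.14 and -0.12. Over all genes tested 10.5% and 10.9% were called higher, so 0 of 8 does not set the family apart. The gene called lower in set A was Sox6, named after its values were seen, at 158 ± 16.6 CPM in the controls and 112 ± 20.3 in set A (adjusted p = 0.0394), and it was at 145 ± 31.1 in set B (adjusted p = 0.717). The closest relatives of Sox4 were not called. Sox11 was at 0.305 ± 0.353, 1.53 ± 1.63 and 4.13 ± 5.78 CPM in the controls, set A and set B (adjusted p = 0.455 and 0.192), and Sox12 was at 8.27 ± 3.89, 3.19 ± 2.10 and 8.16 ± 4.49 CPM (adjusted p = 0.141 and 0.993). Of 17 kidney development factors, 13 were tested, and 3 were called higher and 4 lower in both sets (medians -0.02 and 0.16). Among the lower ones were Hnf4a, a regulator of proximal tubule identity, which fell from 1491 ± 93.3 CPM to 575 ± 133 and 499.9 ± 203, and Lhx1, a factor of early nephrons, which fell from 18.9 ± 4.83 CPM to 3.57 ± 1.81 and 2.55 ± 2.22.

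Vim (chr2:13573927-13582826, plus strand) encodes vimentin, an intermediate filament protein of mesenchymal cells that injured tubular cells also make. Among controls the values were 193, 176, 174 and 132 CPM. Set A kidneys 1 to 4 had 972, 696, 863 and 462 CPM. Set B kidneys 1 to 4 had 693, 689, 945 and 522 CPM. The lowest ischemic kidney lay well above the highest control. Vim rose 4.43-fold in set A (3.33 to 5.91, log2 2.15 ± 0.20, adjusted p = 1.98e-07) and 4.22-fold in set B (3.16 to 5.63, log2 2.08 ± 0.20, adjusted p = 3.13e-07). Of 14 genes for other filaments, lamins and linkers, 9 were tested, of which set A had 3 and set B 4 called higher and 0 lower, with medians of 1.38 and 0.90. Plec, which encodes the filament linker plectin, rose from 479 ± 35.0 CPM to 2002 ± 392 and 1746 ± 392, and Lmna, which encodes the A-type lamins, rose from 100.2 ± 28.4 CPM to 284 ± 105 and 187 ± 54.98. Nes, the filament protein nestin, rose from 6.66 ± 1.77 CPM to 17.4 ± 6.71 (adjusted p = 0.0153) and 16.3 ± 5.66 (adjusted p = 0.0234), and the muscle filament gene Des, at 114 ± 11.6, 164 ± 65.9 and 127 ± 39.2 CPM, was not called (adjusted p = 0.168 and 0.752).

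**Figure D2:**
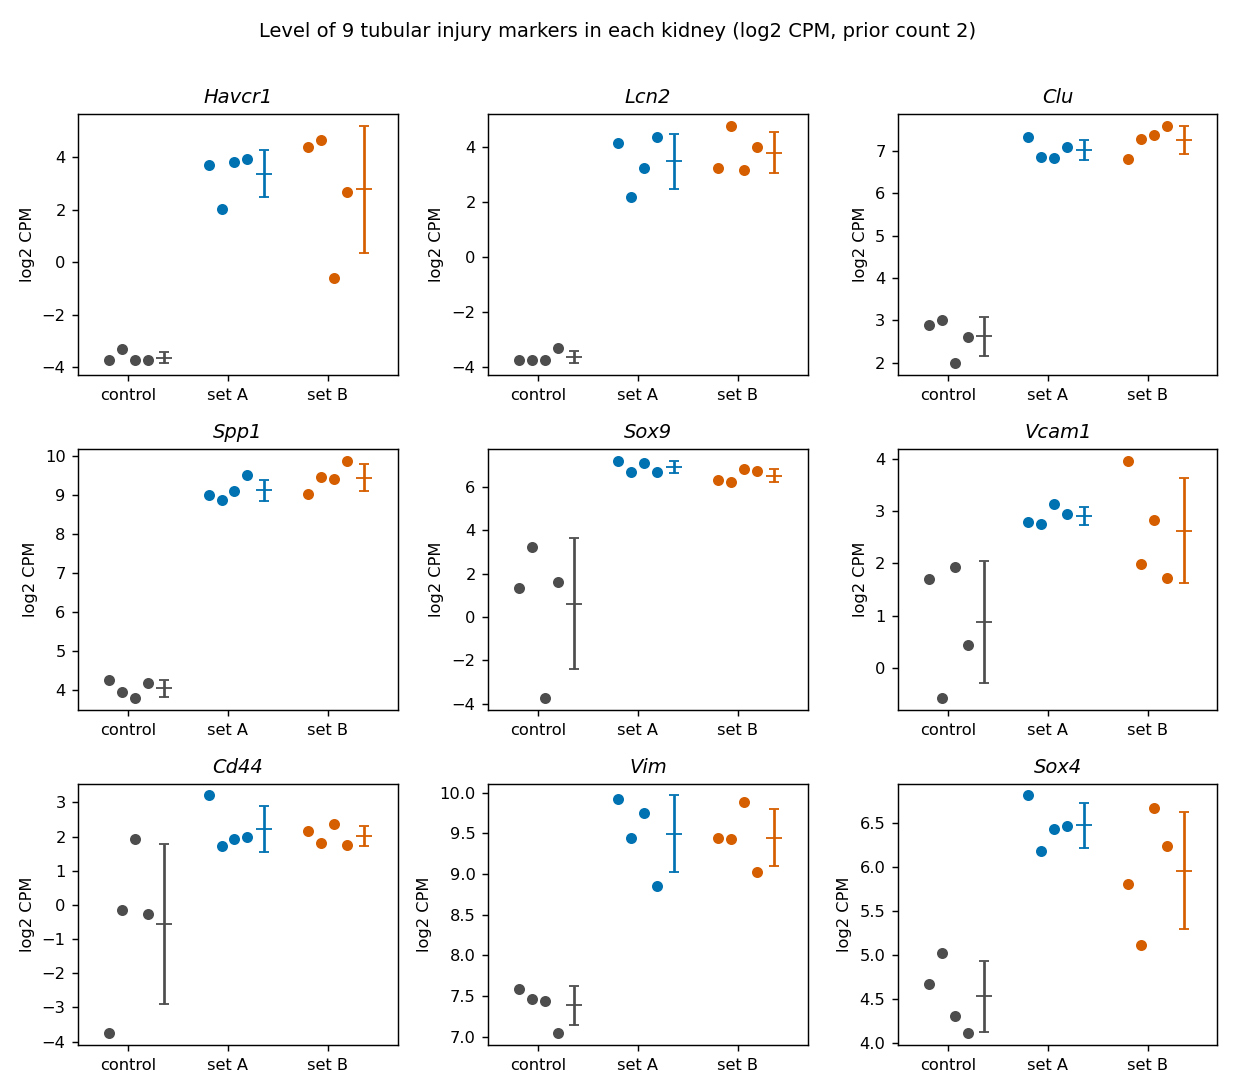
Level of each marker in each kidney, as log2 CPM with a prior count of 2 (y axis), by group (x axis, replicates 1 to 4 from left to right), with the mean and SD of the 4 kidneys beside the points. All ischemic kidneys sit above all controls for Havcr1, Lcn2, Clu, Spp1, Sox9, Vim and Sox4, and the groups overlap for Cd44 and, in set B, for Vcam1.

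Levels were divided by the kilobases of annotated exon, which takes out exon length only. Some genes may be undercounted in this table, as given for Hba-a1, Hba-a2 and Cst3, so the order below is one of counts. On this scale Vim was the highest of the 9 markers in the controls, at 35.6 ± 5.44 CPM per kilobase (SD, n = 4). Spp1 followed at 10.1 ± 1.49 and Sox4 at 4.94 ± 1.40, and the ranges of these 3 genes did not overlap. Clu (1.84 ± 0.528), Sox9 (0.893 ± 0.958), Vcam1 (0.248 ± 0.169), Cd44 (0.195 ± 0.241), Havcr1 (0.00281 ± 0.00562) and Lcn2 (0.00249 ± 0.00498) each overlapped the next gene in this order.

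In set A the order was led by Spp1 at 342 ± 69.1 CPM per kilobase, ahead of Vim at 158 ± 46.8, with no overlap. Clu (38.1 ± 6.22) and Sox9 (29.6 ± 5.74) overlapped and lay above Sox4 (18.7 ± 3.46). Lcn2 (4.96 ± 2.83) and Havcr1 (4.95 ± 2.19) had nearly equal means over the union of exons, whereas over the longest transcript the means were 9.47 for Lcn2 and 5.63 for Havcr1. Vcam1 (0.844 ± 0.102) and Cd44 (0.740 ± 0.408) were last and overlapped. Relative to the controls, Spp1 stood above Vim, Clu and Sox9 above Sox4, and Lcn2 and Havcr1 above Vcam1 and Cd44.

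In set B the order of the means was the same, with Spp1 at 432 ± 105, Vim at 150.1 ± 36.7 and Clu at 45.5 ± 9.71 CPM per kilobase standing apart from each other and from the rest. From Sox9 (22.6 ± 4.79) through Sox4 (13.9 ± 5.97), Lcn2 (5.84 ± 3.24), Havcr1 (5.70 ± 5.01), Vcam1 (0.838 ± 0.638) and Cd44 (0.598 ± 0.1249), each gene overlapped the next.

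Together the 9 genes took 0.0221% ± 0.0035 of all counts in the controls (SD, n = 4), 0.170% ± 0.022 across set A and 0.179% ± 0.025 across set B. Spp1 made up 6.31 to 10.2% of the summed CPM of the markers in the controls, 26.2 to 46.5% across set A and 33.6 to 50.5% across set B. The ranges of this share did not overlap between the controls and either set.

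Between the ischemia sets, which differ in whether the mice were anaesthetised, 0 of the 9 markers were called by edgeR, where 0.00857% of all genes tested were called. DESeq2 and limma-trend also called 0 of the 9, 0 had an unadjusted p below 0.05, and 0 were called without set B replicate 4. The sets overlapped for all 9 genes, against 2.61% of all genes with sets that did not overlap. Spp1 had the smallest p (0.0604 before and 0.990 after adjustment), with set B at 1.27 times set A (95% confidence interval 0.989 to 1.62). The 1 gene called across the whole table was Slc5a12, a sodium-coupled monocarboxylate transporter of the proximal tubule, named after its values were seen, at 13.6 ± 3.35 CPM in set A, against 48.9 ± 23.4 in set B (adjusted p = 0.0328). Since titles and group field contradict each other, this direction is not tied here to anaesthesia. That count of 1 gene fell to 0 when any 1 control, any 1 set A kidney, or set B replicate 1 or 3 was left out, and it was 3 without set B replicate 2 and 7 without set B replicate 4.

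The intervals of set B over set A show what size of difference the data allow. They ran from 0.989 to 1.62 for Spp1, 0.714 to 1.27 for Vim, 0.885 to 1.61 for Clu and 0.502 to 1.10 for Sox4. They were wider for Havcr1 (0.398 to 3.34), Lcn2 (0.547 to 2.53), Sox9 (0.346 to 1.69), Vcam1 (0.381 to 2.60) and Cd44 (0.185 to 3.53). Of the 9 ratios, 4 were above 1 and 5 below.

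Among the 8 ischemic kidneys, set A replicate 1 had the highest level of Sox9, Cd44, Vim and Sox4 and lay above the mean of the 8 for 8 of the 9 markers. Set A replicate 2 had the lowest level of Lcn2, Spp1 and Cd44 and was above the mean for 0 of the 9. Kidneys of the same set thus lay at opposite ends.

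In set B, replicate 2 had the highest Havcr1 and Lcn2 together with the lowest Sox9 and Sox4. Replicate 4, the kidney that stood apart, had the highest Clu and Spp1 and the lowest Vcam1, and replicate 1 had the highest Vcam1 and the lowest Clu. Replicate 3 held 12 Havcr1 reads, a log2 deviation of -3.68 from the mean of the 8 kidneys, while its other 8 markers deviated by -0.47 to 0.45. No kidney was the highest for the receptors, the secreted proteins and the transcription factors at once.

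**Figure D3:**
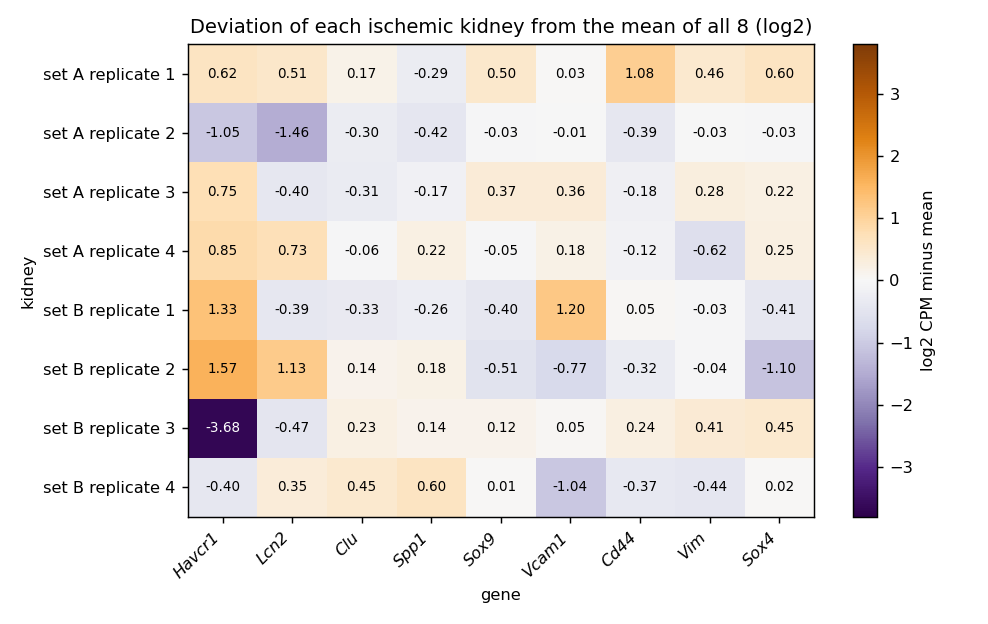
Deviation of each ischemic kidney (y axis) from the mean of the 8 ischemic kidneys in log2 CPM, for each marker gene (x axis), with the value printed in each cell. Set A replicate 2 is below the mean for all 9 markers, and the largest deviation is that of Havcr1 in set B replicate 3 (-3.68).

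Across the 8 ischemic kidneys the markers were compared pair by pair, 36 pairs in all, to see whether a kidney high for 1 marker was high for the others. The median Pearson r of log2 CPM was 0.07, 19 of the 36 pairs had r above 0, and r ran from -0.77 to 0.88. By two-sided exact permutation tests 3 pairs had an unadjusted p below 0.05 and 0 had an adjusted p below 0.05. The highest r was that of the 2 transcription factors Sox9 and Sox4 (r = 0.88, exact p = 0.00250, adjusted p = 0.0902, Spearman rho = 0.81, exact p = 0.0218), and r was 0.77 without the 2 kidneys farthest from the median of Sox9. The secreted proteins Clu and Spp1 had r = 0.75 (exact p = 0.0345, adjusted p = 0.414, rho = 0.50, exact p = 0.216) and 0.51 without the 2 farthest kidneys. Clu and Vcam1 had r = -0.77 (exact p = 0.0223, adjusted p = 0.401, rho = -0.71, exact p = 0.0576) and -0.46 without the 2 farthest kidneys. The 8 kidneys come from both sets, and with 4 kidneys a set is too small for a correlation of its own. Without set B replicate 4, 0 pairs had an adjusted p below 0.05 as well, and r was 0.88 for Sox9 with Sox4, 0.57 for Clu with Spp1 and -0.63 for Clu with Vcam1.

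**Figure D4:**
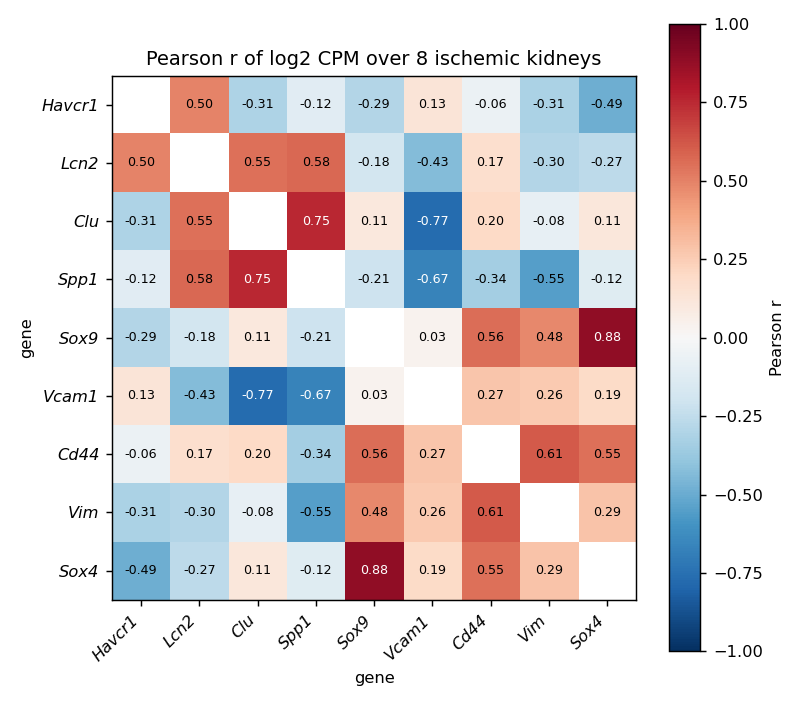
Pearson r of log2 CPM over the 8 ischemic kidneys for each pair of marker genes (both axes), with the value printed in each cell. Sox9 with Sox4 is the highest (0.88) and Clu with Vcam1 the lowest (-0.77).

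The summed level of 12 proximal tubule markers was 7401 to 8143 CPM in the controls, 799.6 to 1484 across set A and 475 to 1666 across set B. Over the 8 ischemic kidneys, 0 of the 9 injury markers correlated with this sum at an adjusted p below 0.05. Spp1 had r = -0.83 (exact p = 0.0102, adjusted p = 0.0917, rho = -0.81, exact p = 0.0218), and -0.66 without the 2 kidneys farthest from the median of the log2 sum, which were set B replicates 4 and 1. Vcam1 had r = 0.77 (exact p = 0.0244, adjusted p = 0.110, rho = 0.57, exact p = 0.151) and Clu had r = -0.72 (exact p = 0.0431, adjusted p = 0.129, rho = -0.55, exact p = 0.171), and r was 0.14 and -0.28 without those 2 kidneys, so that these 2 relations rest on them. Lcn2 had r = -0.63 (exact p = 0.0920, adjusted p = 0.207, rho = -0.64, exact p = 0.0962) and -0.86 without them. With set B replicate 4 alone left out, r with the sum was -0.66 for Spp1, 0.61 for Vcam1, -0.51 for Clu and -0.73 for Lcn2, and 0 of the 9 had an unadjusted exact p below 0.05.

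A list of 45 other genes of the tubular injury response had 44 in the table, of which 38 were tested. In set A 23 were called higher and 1 lower, and in set B 24 higher and 1 lower. Over all genes tested 10.5% and 10.9% were called higher. Median log2 fold changes of the list were 2.92 and 3.02. The list was chosen with earlier results of these data known, so its counts are a description. Krt20, a keratin of surface epithelia, was at 0.0664 ± 0.116 CPM in the controls, 37.5 ± 13.7 and 26.1 ± 11.5 in sets A and B, a rise called in both. Sprr2f, a small proline-rich protein of cornified envelopes, was at 0.0162 ± 0.0194, 32.2 ± 13.6 and 30.7 ± 18.8 CPM, also called in both. The gene called lower was Igfbp7, a secreted protein measured in urine as a sign of kidney stress and named after its values were seen, which fell from 452 ± 95.4 CPM to 254 ± 85.7 and 179 ± 48.3.

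Over all 12 kidneys the genes with a level most like each marker were looked for among 8513 genes, by Pearson r of log2 CPM, as a description in which the difference between control and ischemic kidneys sets most of r. Sprr2g was most like Spp1 (r = 0.997), and Pea15a followed for Spp1 and for Clu (0.99 each). Clu was most like Spp1 itself (0.99). Lcn2 was most like Sprr2f (0.99), and Sox9 was most like Rrm2 (0.99) and Spock2 (0.98). Vim was most like the collagen gene Col3a1 and Mical2 (0.99 each). Lower values were found for Havcr1 with Anxa4 (0.96) and Lrrfip2 (0.95), Cd44 with Noc2l (0.96) and Abracl (0.95), Sox4 with Podxl (0.94) and Sf3b3 (0.93), and Vcam1 with Nfkbiz and Hnrnpl (0.91 each).

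Cells other than tubular epithelium also make several of these markers, so the genes that mark those cell types were counted in the same comparisons. Over all genes tested 10.5% and 10.9% were called higher in sets A and B. Fibroblasts also make vimentin. Of the 6 fibroblast and pericyte markers tested, 3 were called higher in each set, with a summed level of 515 to 667 CPM in the controls, 1088 to 2925 across set A and 1296 to 2693 across set B. Among them Col1a1 rose from 368 ± 40.5 CPM to 1444 ± 621 and 1273 ± 495, and Col3a1 from 39.5 ± 7.01 CPM to 209 ± 64.3 and 205 ± 59.3. The 3 called were collagen genes, Col1a2 being the other one, and Col1a1 made up most of the sum. The receptors Pdgfra (log2 fold changes -0.41 and -0.53) and Pdgfrb (0.40 and 0.19) and the proteoglycan gene Cspg4 (-0.22 and 0.03), named after their values were seen, were not called. Of 4 smooth muscle markers 2 were called higher in each set, namely Acta2 and Tagln, with a sum of 247 to 400.1 CPM in the controls, 507 to 1414 across set A and 593 to 950.1 across set B. Acta2 made up most of that sum, and the other 2 genes, Myh11 (-0.20 and -0.10) and Cnn1 (-1.29 and -1.16), had log2 fold changes below 0 and were not called. The part of these cells in the level of Vim was not tested.

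Of the 6 macrophage markers tested, 0 were called higher and 1 lower in each set, and their sum was 51.9 to 71.98 CPM in the controls, 12.7 to 23.8 across set A and 11.6 to 30.5 across set B. The gene called lower was Csf1r, the receptor for macrophage growth factor, at 52.1 ± 9.05, 13.5 ± 5.25 and 10.5 ± 6.53 CPM, which made up most of this sum. The other 5 had low levels and were not called, and they are named after their values were seen. Log2 fold changes in sets A and B were 1.37 and 2.32 for Itgam, -0.01 and 1.89 for Cd68 and 0.54 and 1.09 for C1qb. They were 1.68 and -1.42 for Emr1 and -2.58 and -1.33 for Mrc1. Mrc1, the highest of these 5 in the controls, was at 5.57 ± 2.63, 0.928 ± 0.718 and 2.22 ± 1.78 CPM. Endothelial cells make VCAM-1 as well, and of 9 endothelial markers tested 0 were called higher and set A had 0 and set B 1 called lower, with sums of 182 to 236 CPM in the controls, 111 to 179.7 across set A and 103 to 182 across set B. Of the T and NK cell markers 6 of 7, of the B cell markers 4 of 5 and of the fat cell markers 5 of 5 were at or under the floor in every kidney. No leukocyte marker that passed the filter was called higher in either set, and these were the 6 macrophage markers and the T cell gene Cd3e. Cd3e, named after its values were seen, was at 1.83 ± 1.94 CPM in the controls and 0 in both sets. It was called lower in each (adjusted p = 0.0412 and 0.0472). Cd3d, Cd3g, Cd4 and Cd8a had 0 counts in every kidney, and values of 0 are not read as absence. With so few leukocyte markers past the filter, these counts do not show whether leukocyte numbers changed. Of 2 erythroid markers tested, 1 was called lower in set A and both in set B, Beta-s falling from 83.8 ± 26.6 CPM to 35.4 ± 9.97 and 21.4 ± 7.24. Adrenal markers were not tested, at a sum of 0 CPM in the controls and at most 1.57 CPM in an ischemic kidney.

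Markers of the differentiated tubule segments were lower or did not pass the test, where 22.3% and 22.8% of all genes were called in either direction in sets A and B. In the proximal tubule Miox, an inositol oxygenase, fell from 123 ± 22.7 CPM to 8.87 ± 5.85 and 6.15 ± 3.21. Of 7 thick ascending limb markers 3 were called lower in each set, and Egf fell from 206 ± 16.1 CPM to 3.99 ± 2.505 and 1.55 ± 1.33, while Slc12a1 fell from 1511 ± 42.3 CPM to 179 ± 16.5 and 256 ± 184. The third was the claudin gene Cldn10. Umod, which encodes uromodulin and is a standard marker of this segment, was not called, at 115 ± 3.25, 128 ± 35.1 and 128 ± 58.3 CPM for controls, set A and set B (adjusted p = 0.7603 and 0.742). Of 5 distal convoluted tubule markers set A had 2 and set B 3 called lower, with Klhl3 falling from 31.4 ± 8.16 CPM to 9.17 ± 3.55 and 4.25 ± 2.26 and Calb1 from 629 ± 102 CPM to 186 ± 127 and 153 ± 53.9. Slc12a3, the sodium chloride cotransporter that defines this segment, was at 964 ± 149, 827 ± 116 and 876 ± 145 CPM and was not called (adjusted p = 0.327 and 0.5904). Of 5 principal cell markers tested 0 were called in either set, and of 6 intercalated cell markers 1 was lower in each, Slc4a1, while the list medians were 0.16 and 0.55. Of the 5 not called, Foxi1 (log2 fold changes 0.22 and 0.68), Atp6v1g3 (0.20 and 0.81), Atp6v0d2 (0.12 and 0.43) and Aqp6 (1.09 and 0.88) had values above 0 and Slc26a4 (-0.77 and -0.74) below. Of 7 podocyte markers 3 were called higher in each set, Podxl rising from 70.0 ± 7.24 CPM to 128 ± 26.1 and 110.1 ± 25.0, while the nephrin gene Nphs1, with log2 fold changes of 0.63 and 1.504, was not called. Of 4 urothelial markers tested 1 was called higher in each set, Krt5, which rose from 9.38 ± 2.80 CPM to 117 ± 43.6 and 148 ± 84.4. Krt5, a keratin of basal epithelial cells in general, made up most of the summed level of that list, and the uroplakin genes, which are particular to urothelium, were low and not called higher. Upk1a was at 1.55 ± 0.626, 0.451 ± 0.576 and 0.0158 ± 0.0316 CPM (adjusted p = 0.667 and 0.0895), Upk1b was at 1.72 ± 1.19, 1.07 ± 2.14 and 1.27 ± 1.57 CPM (0.896 and 0.935), and Upk2 and Upk3a were not tested. Trp63, the other urothelial gene tested, was at 1.09 ± 0.825, 2.68 ± 0.398 and 3.45 ± 1.38 CPM and was not called (adjusted p = 0.526 and 0.370). All set A kidneys lay above all controls for Trp63. The genes of these segment and urothelial lists that were not called are named after their values were seen.

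**Figure D5:**
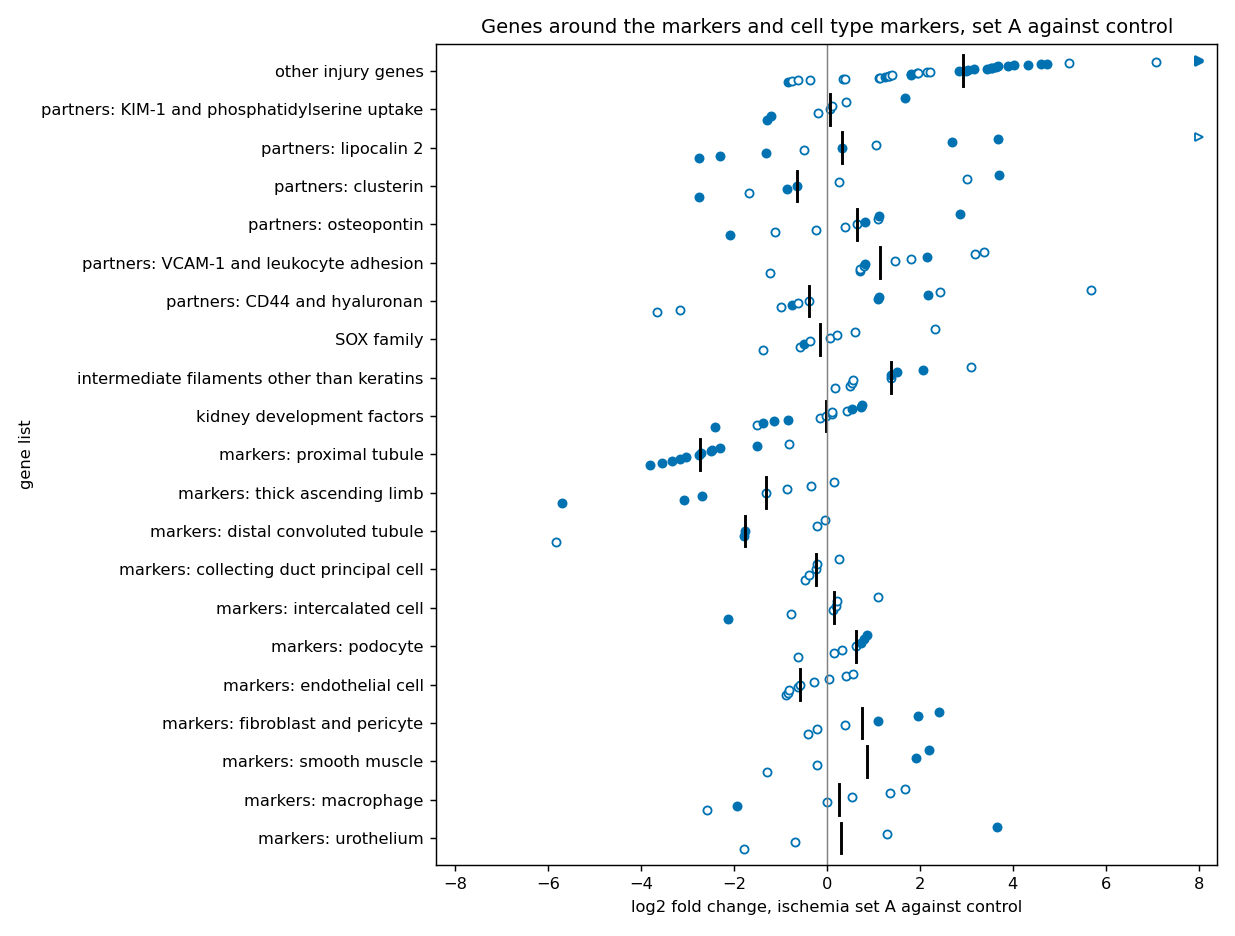
Log2 fold change of set A against control (x axis) for each tested gene of the lists around the markers and of the cell type marker lists with at least 3 tested genes (y axis), where filled points were called, open points were not and black lines are list medians. Values beyond 8 are drawn as triangles at 8. The other injury genes lie mostly to the right (median 2.92) and the proximal tubule markers to the left (median -2.73).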

How the data were processed

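RNA from 12 mouse kidneys was sequenced as stranded mRNA libraries (700 ng of total RNA, single reads of 100 bases). Alignment by the authors was to mm10 with STAR, and HTSeq gave the number of reads of each gene. The deposited values are raw counts per gene, with no molecular identifiers. Tool versions and the strand setting of the counting are not given in the sources used here. Kidneys were grouped by their labels. Here, genes were filtered with filterByExpr, scaled by TMM and tested by the quasi-likelihood F-test of edgeR 4.0.16 (R 4.3.3) in 1 fit of all 12 kidneys, with Benjamini-Hochberg adjustment over 11664 genes and a threshold of 0.05. The script was tested on simulated data in which genes differed from the controls but not between the ischemia sets, so that test does not show which differences between the sets could be called. Exact permutation tests (SciPy 1.17.1) compared CPM of 4 against 4 kidneys and correlations over 8 kidneys. Log2 CPM used a prior count of 2, and levels per kilobase used the union of GENCODE M21 exons. Promoter windows were from RefSeq.

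Alternatives were no filter or a stricter one, DESeq2 1.42.0, its size factors in edgeR, limma-trend (limma 3.58.1), a replicate block, pairwise fits, rank correlation, another prior count or no TMM factor for the correlations, transcript length and each kidney left out. The markers and lists were chosen with earlier results of these data known. Named from each list were the genes with the 2 largest changes in set A among those called, with a mean log2 CPM of 1 or more and no overlap of the groups, plus direct receptors, ligands or relatives of a marker. For each marker, the 2 genes of highest Pearson r were named, except 1 gene that is not reported here. P-values measure the spread between kidneys, 1 library each.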

Additional observations from a re-analysis of the deposited data

Results flagged for a closer look

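Among the 27 groups of 4 kidneys (9 markers in 3 groups), 3 had a kidney whose gap to the nearest other kidney, divided by the range of the group, was above the critical value of Dixon's test at 95%. Chance marks about 1 group in 20 where values vary continuously, which does not hold for the controls of Havcr1 and Lcn2, since 1 read in 1 of 4 kidneys always gives a gap share of 1. For Havcr1, control replicate 2 was the highest of its group (gap share 1) through a single read against 0 in the others. For Lcn2, control replicate 4 was the highest (gap share 1), again through a single read. For Havcr1 in set A, replicate 2 was the lowest, at 3.98 CPM against 12.8 to 14.99 in the other 3 kidneys (gap share 0.878). No cause was tested for any of these.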

How the results depend on the processing

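Havcr1, Lcn2, Clu, Spp1, Sox9, Vim and Sox4 were called in all 19 alternatives in both comparisons with the controls, and 0 markers were called between the ischemia sets in any of them. The number of markers called ran from 7 to 9 in set A and from 7 to 8 in set B. Beside the results given above for Vcam1 and Cd44, Vcam1 passed the threshold in set A with a replicate block (log2 fold change 2.12, adjusted p = 0.0395). That block called 2491, 2531 and 1 genes in set A, in set B and between the sets, against 2599, 2659 and 1 without it. Kidneys with the same number did not deviate together (r from -0.06 to 0.05 in 12 pairs, 1 of the 12 highest with its own number), so they share only a number. Between the sets, small differences that were not called changed sign. The log2 difference of Havcr1 was -0.48 with the replicate block and -0.58 with limma-trend, and with each kidney left out it ran from -0.30 to 0.60, that of Lcn2 from -0.20 to 0.54, of Vcam1 from -0.67 to 0.24, of Cd44 from -0.47 to 0.15 and of Vim from -0.25 to 0.077. The cause was not tested. Over all genes, 1 was called between the sets, 6 with no low-count filter, 50 with DESeq2, 0 with limma-trend or with the 2 sets fitted alone, and 0 to 7 with a kidney left out. By the length of the longest transcript, the control levels of Clu, Vcam1 and Vim were 3.50, 0.537 and 57.7 CPM per kilobase, and that of Lcn2, at 0.00475, stood above Havcr1 at 0.0032, the reverse of their order over the union of exons. For Havcr1 and Lcn2 the 4 controls together held 1 read of each, which leaves the size of their rise with a wide counting interval.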
